A study of Mus musculus with 4 samples.

Results

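The phagocyte NADPH oxidase and its partner proton channel were followed through 6 genes, Cybb, Cyba, Ncf1, Ncf4, Rac2 and Hvcn1, out of 18193 named genes on the array. All probe sets that the platform annotation gives to 1 of these symbols alone were used, which came to 11 of 45101. Gene expression had been measured in 4 subsets of mouse splenic dendritic cells (DCs) on Affymetrix Mouse Genome 430.2 arrays, with 1 array per subset. All mice carried the Cx3cr1gfp/+ genotype on the C57BL/6 strain, in which a green fluorescent protein gene stands in place of 1 copy of the chemokine receptor gene Cx3cr1, and every sample was labelled as not treated with BMP4. The subsets are titled CD8+CX3CR1+, CD8+CX3CR1-, CD4+ and DN (in this field, double negative for CD4 and CD8), and values given together follow that order unless another is stated. They had been sorted from collagenase-digested spleen after enrichment for CD11c. The sources used here give neither the age and number of the mice nor whether cells were pooled.

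The oxidase is a membrane enzyme that moves electrons from NADPH to oxygen and so makes superoxide inside phagosomes. Its core is a heterodimer of Cybb (gp91phox, also called NOX2), which carries the electrons, and Cyba (p22phox), which stabilises it and docks the cytosolic subunits. On activation the organiser Ncf1 (p47phox), the phosphoinositide-binding subunit Ncf4 (p40phox) and the GTPase Rac2 join the core. Electron transfer leaves protons behind in the cytosol, and the voltage-gated channel Hvcn1 lets them out, which keeps the enzyme running. In DCs the oxidase is best known for its effect on phagosomal pH and thereby on how fast antigen is degraded.

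Values are MAS5 signals on a linear scale. Signals under a floor of 55.3, which is the 90th percentile of 130 probe sets for genes of smell, taste and hair (chemosensory receptors and keratin-associated proteins), were raised to it before any difference was taken. Each subset has 1 array and thus no replicates, no value carries a standard deviation, and no test was possible. The only error that could be measured was that between probe sets of one gene. Taken over the probe sets of each gene, the standard deviation of the log2 difference had a root mean square of 0.46 to 0.60 in the 6 pairs of arrays, and differences smaller than this are described as within the probe set spread. This spread does not cover mice or sorts, and the number of arrays limits the precision. Differences of 4-fold or more, 2 on the log2 scale, were called. All 6 members lay above the floor on all 4 arrays.

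The 4 arrays had the same trimmed mean signal, and 41.2% to 47.9% of their probe sets lay above the floor. The CD4+ array had the highest share and for the Gapdh control the highest ratio of 3' to 5' signal, 11.8 against 7.56 to 8.98, which is higher in degraded RNA. The sample titles of the CD8+CX3CR1- and DN arrays disagree with a label field that names the DC type, and the titles were used. Itgax, which encodes CD11c, was between 3271 and 6415 on all 4 arrays. The signals of Cd8a were 2530, 4742, 18.7 and 129.5, those of Cd4 were 93.3, 21.1, 564 and 93.9, and those of Cx3cr1 were 894, 97.3, 275 and 258, so each was highest where the titles place it or, for Cd8a, on both CD8+ arrays.

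Within the complex, the members did not move together over the subsets. Cybb and Hvcn1 were low in CD8+CX3CR1- cells alone, Ncf4 was low in CD8+CX3CR1+ cells alone, and Cyba, Ncf1 and Rac2 stayed within 4-fold everywhere. Of the 6 members, 3 spanned 4-fold or more over the 4 arrays, and the share of all detected genes that did so was not counted. Of all detected genes, 0.0473% had a wider range than Cybb, 1.07% a wider one than Hvcn1 and 3.26% a wider one than Ncf4.

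**Figure D1:**
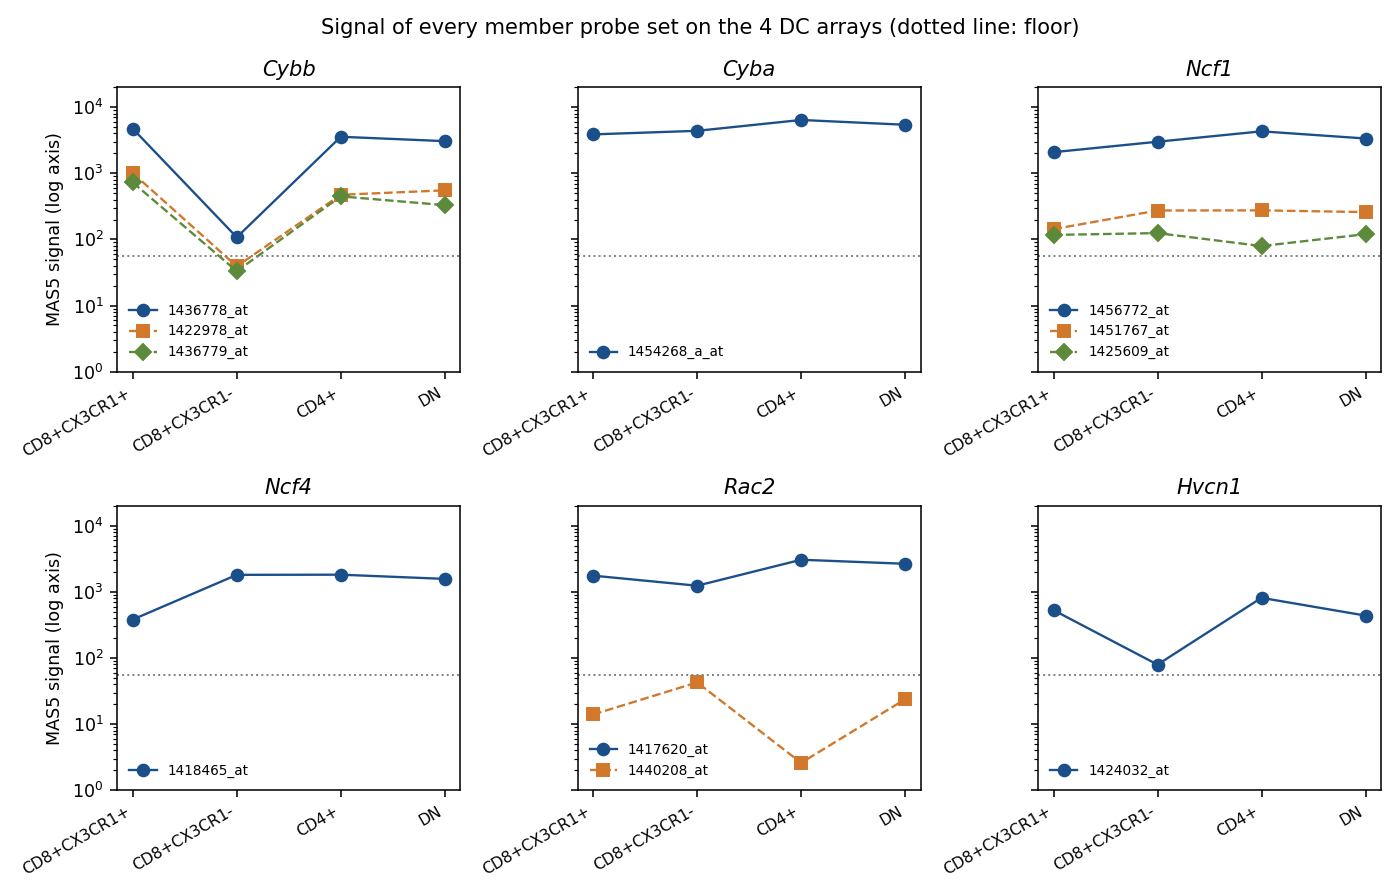
MAS5 signal (log axis) of each of the 11 probe sets on the 4 arrays, 1 panel per gene, with solid lines for the probe set that stands for the gene, dashed lines for the others and a dotted line at the floor of 55.3. The 3 Cybb probe sets and the Hvcn1 probe set dip in CD8+CX3CR1- cells, while Ncf4 dips in CD8+CX3CR1+ cells.

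Cybb, the catalytic subunit, gave signals of 4728, 108, 3569 and 3064 at its brightest probe set, 1436778_at. It was thus high in 3 subsets and close to the background in CD8+CX3CR1- cells. The CD8+CX3CR1- signal was 43.9-fold below that of CD8+CX3CR1+ cells, 33.1-fold below that of CD4+ cells and 28.5-fold below that of DN cells. By size these differences ranked 2, 8 and 6 among 12673 detected genes. Among the 3 arrays with high Cybb, the order was CD8+CX3CR1+, CD4+, DN. Neighbours in this order differed by 0.41 and 0.22 on the log2 scale, both within the probe set spread. The first and the last differed by 0.63, against a probe set spread of 0.46. At the dimmer probe sets, 1422978_at and 1436779_at, CD8+CX3CR1+ minus CD4+ was 1.09 and 0.70, beyond the spread of 0.54. The CD8+CX3CR1+ array stayed highest at both, while 1422978_at was higher in DN cells than in CD4+ cells.

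The other Cybb probe sets gave the same contrast between CD8+CX3CR1- cells and the other subsets. Probe set 1422978_at had signals of 1007, 39.2, 473 and 553. Probe set 1436779_at had 727, 33.1, 448 and 330 in the same order. Both lay under the floor in CD8+CX3CR1- cells and well above it on the other arrays. Taken against the floor, the first was at least 18.2-fold lower there than in CD8+CX3CR1+ cells, at least 8.55-fold lower than in CD4+ cells and at least 9.99-fold lower than in DN cells. The second was at least 13.1-fold, 8.09-fold and 5.97-fold lower. The size of the Cybb difference therefore varied with the probe set, while the direction and the 4-fold call held at all 3. The floor calculated on the CD8+CX3CR1- array alone was 62.2, so these bounds would be somewhat smaller with that array's own floor.

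The start of Cybb is shown because its transcript has the widest range among the members. RefSeq sequences around the transcription start (build GRCm38.p6) were found for 3 of the 6 members, Cybb, Ncf1 and Cyba, and the 250 bases before each start are given on the gene's strand. Capitals mark matches to any of 5 motifs searched on both strands and chosen with the sequences in view. These were GAGGAA (the core bound by the Ets factor PU.1), CCAAT (the CCAAT box), the interferon-stimulated response element (GAAA, any 2 bases, then GAAA), TTCNNNGAA (the gamma-activated site) and GGGCGG (the GC box).
Cybb, chrX:9469325-9469574, minus strand: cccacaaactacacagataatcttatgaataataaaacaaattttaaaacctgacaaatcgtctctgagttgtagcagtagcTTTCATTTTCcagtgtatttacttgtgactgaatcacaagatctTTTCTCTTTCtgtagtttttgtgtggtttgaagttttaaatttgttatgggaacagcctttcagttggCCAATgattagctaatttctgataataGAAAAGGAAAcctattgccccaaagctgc
Ncf1, chr5:134229626-134229875, minus strand: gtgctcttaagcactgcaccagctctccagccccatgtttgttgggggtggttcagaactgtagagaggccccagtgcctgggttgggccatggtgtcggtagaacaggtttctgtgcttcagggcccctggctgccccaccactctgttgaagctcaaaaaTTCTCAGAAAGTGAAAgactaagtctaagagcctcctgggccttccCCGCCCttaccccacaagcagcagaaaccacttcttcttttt
Cyba, chr8:122432941-122433190, minus strand: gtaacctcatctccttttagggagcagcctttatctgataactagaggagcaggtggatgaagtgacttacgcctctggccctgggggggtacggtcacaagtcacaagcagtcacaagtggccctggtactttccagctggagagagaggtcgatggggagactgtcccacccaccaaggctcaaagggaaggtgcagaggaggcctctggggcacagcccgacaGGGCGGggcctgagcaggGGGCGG

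The Cybb window held 3 matches to the response element, starting at bases -168, -124 and -29 counted from the transcription start, and 1 to CCAAT at -56. Just after the start, from base 10 to base 15, it held the only GAGGAA match among the 3 genes, on the opposite strand, within the stretch ccaaagctgctgttttcatTTCCTCatcag. The Ncf1 window held 1 match to the response element at -82, which overlaps the TTCNNNGAA match at -88, and 1 to the GC box. The Cyba window held 2 GC boxes and no match to the other motifs. Over all 32851 RefSeq windows of 300 bases, 3.44% held the response element, 8.3% TTCNNNGAA, 28.3% GAGGAA, 35.7% GGGCGG and 37.4% CCAAT. These matches describe the letters only.

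Cyba, the partner of Cybb in the membrane, had a single probe set with signals of 3877, 4389, 6405 and 5421. Its whole range was 1.65-fold, and 47.3% of the detected genes had a wider one. In CD8+CX3CR1- cells, where Cybb was near background, the Cyba signal was slightly higher than in CD8+CX3CR1+ cells (CD8+CX3CR1+ minus CD8+CX3CR1- was -0.18 on the log2 scale). It was 1.46-fold lower there than in CD4+ cells and 1.24-fold lower than in DN cells. All of these lay within the probe set spread of their pairs. The widest Cyba difference, between the CD8+CX3CR1+ and CD4+ arrays, was -0.72 on the log2 scale against a spread of 0.54.

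Among the cytosolic subunits, Ncf4 stood apart. Its signals were 382, 1811, 1821 and 1573. Those of the last 3 lay within 1.16-fold of each other, and the CD8+CX3CR1+ array was 4.74-fold, 4.76-fold and 4.12-fold lower in the same order. Ncf4 thus had the opposite position to Cybb on the CD8+ arrays, high where Cybb was low. The difference from the DN array placed Ncf4 at rank 15 among the genes lower in CD8+CX3CR1+ cells, that from the CD4+ array at rank 23, and that from the CD8+CX3CR1- array at rank 114. Ncf4 has 1 probe set, so no other probe set stands beside these values. The call against the DN array sits just past 4-fold. With arrays scaled to an equal median the log2 differences were -1.99 against DN and -1.92 against CD4+, neither of which is called.

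Ncf1, the organiser subunit, had signals of 2087, 3002, 4313 and 3359 at its brightest probe set. The CD8+CX3CR1+ array was lowest, 2.07-fold below the CD4+ array and 1.61-fold below the DN array. A dimmer probe set, 1451767_at, had 143 in CD8+CX3CR1+ cells and 259 to 275 on the other 3. The dimmest, 1425609_at, had 79.4 in CD4+ cells and 117 to 125 on the others, so that the probe sets disagreed on the direction between the CD8+CX3CR1+ and CD4+ arrays, with log2 differences of -1.05, -0.94 and 0.56. Ncf1 was called in none of the pairs.

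Rac2, the small GTPase of blood cells that switches the complex on, had signals of 1762, 1240, 3065 and 2662. The CD8+ arrays lay below the other arrays. The CD8+CX3CR1- array was 2.47-fold below the CD4+ array and 2.15-fold below the DN array, differences under the 4-fold threshold that 8.96% and 8.93% of the detected genes equalled or passed. Its second probe set, 1440208_at, lay between 2.6 and 42.8, under the floor on all 4 arrays, and gives no information on the subsets.

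Hvcn1, the proton channel, had signals of 529, 79.5, 814 and 438. The order of the 3 higher arrays (CD4+, CD8+CX3CR1+, DN) differs from that of Cybb, but the low one is the same. In CD8+CX3CR1- cells Hvcn1 was 10.2-fold below CD4+ cells, 6.66-fold below CD8+CX3CR1+ cells and 5.51-fold below DN cells. That low signal lay not far above the array's own background value of 62.2, so the folds are best read as near a bound. Between the CD8+CX3CR1+ and DN arrays Hvcn1 differed by 0.27 on the log2 scale, within the probe set spread, and between the CD4+ and DN arrays by 0.89, which exceeded it. Only 1 probe set measures the gene.

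**Figure D2:**
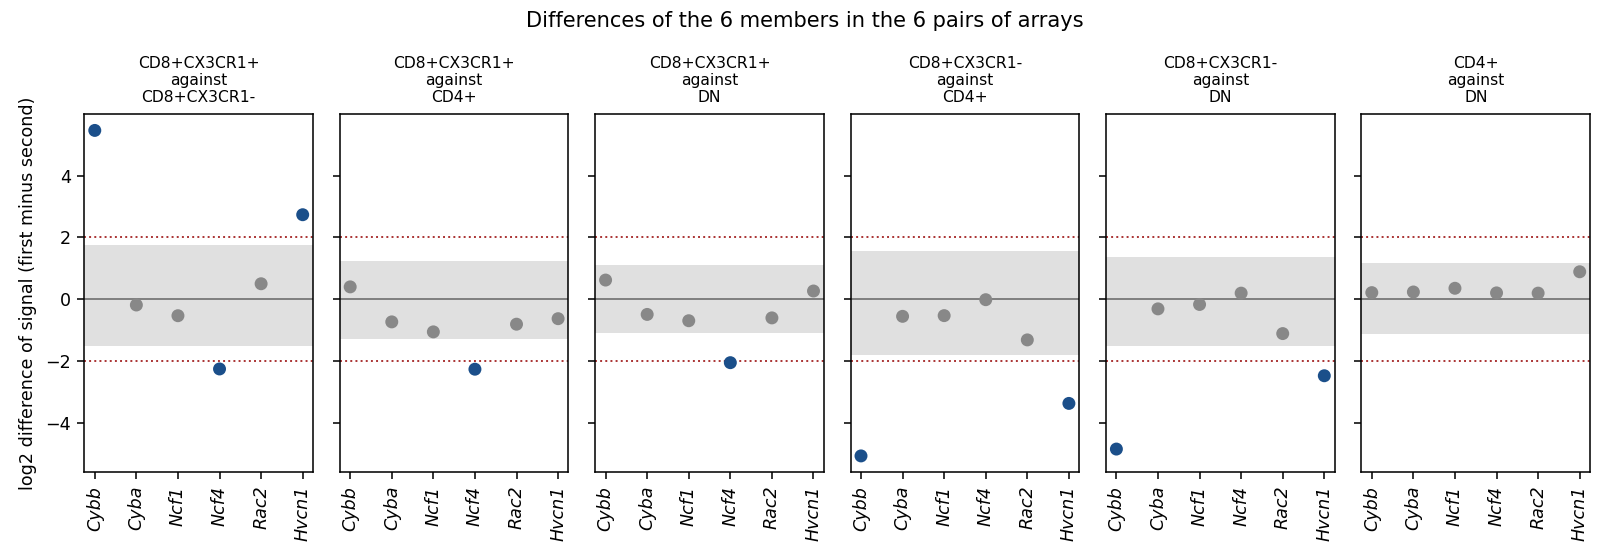
Log2 difference of signal (first array minus second) for each of the 6 genes in each of the 6 pairs, with blue points past 4-fold (red dotted lines) and a grey band for the central 95% of all detected genes. Cybb and Hvcn1 lie outside the band in the 3 pairs with the CD8+CX3CR1- array, and Ncf4 in the 3 pairs with the CD8+CX3CR1+ array.

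Pair by pair, 3 of the 6 members were at least 4-fold apart between the CD8+CX3CR1+ and CD8+CX3CR1- arrays, where the share among all detected genes was 2.82%. Cybb and Hvcn1 were higher and Ncf4 was lower in CD8+CX3CR1+ cells. Between the CD8+CX3CR1- and CD4+ arrays, Cybb and Hvcn1 were called against 2.97% of all genes, and between the CD8+CX3CR1- and DN arrays the same members were called against 2.02%. Ncf4 alone was called between the CD8+CX3CR1+ and CD4+ arrays (0.773% of all genes) and between the CD8+CX3CR1+ and DN arrays (0.41%). No member was called between the CD4+ and DN arrays (0.253%), where Hvcn1 had the widest difference, 1.86-fold higher in CD4+ cells. At the lower threshold of 2-fold, no member was added between the CD8+CX3CR1+ array and the CD8+CX3CR1- array (13.5% of all genes) or the DN array (5.92%), while Ncf1 joined Ncf4 against CD4+ (9.4%). Rac2 joined Cybb and Hvcn1 between the CD8+CX3CR1- array and both CD4+ (15.9%) and DN (11.0%), and still none was called between CD4+ and DN (7.6%). Pairs that share an array are not independent of each other, so the repeated calls of a member rest on the same low signal.

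The median log2 difference of the 6 members was 0.16 between the CD8+CX3CR1+ and CD8+CX3CR1- arrays, with a median of 0 over all detected genes. It was -0.76 for CD8+CX3CR1+ minus CD4+ and -0.54 for CD8+CX3CR1+ minus DN. For CD8+CX3CR1- minus CD4+ it was -0.93, where all detected genes had a median of -0.01, and for CD8+CX3CR1- minus DN it was -0.70. A detected gene under the floor on both arrays of a pair counts as 0, which draws the median of all genes towards 0. No member was under the floor. The medians of all genes given with the lists below have the same limit.

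Profiles centred on their mean over the 4 arrays were compared between members by Euclidean distance in log2 units. Of the 15 pairs of members, Cyba and Ncf1 lay closest, at 0.274, with the same order of arrays (CD4+, DN, CD8+CX3CR1-, CD8+CX3CR1+). This holds for the brightest Ncf1 probe set, and the dimmer ones had other orders. Cybb and Ncf4 lay furthest apart, at 5.57. Hvcn1 was the member nearest to Cybb, at 2.09. Over 4 arrays such distances are a description, and flat profiles lie close to each other by construction.

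By the same measure the genes nearest to Cybb among all other detected genes were Fcer1g (0.475), Slc2a3 (0.603), Dennd3 (0.642), Csf1r (0.728) and Cd7 (0.911). Fcer1g encodes the common gamma chain of activating Fc receptors and had signals of 3693, 126, 3903 and 2649 on the 4 arrays. Csf1r, the receptor for colony-stimulating factor 1, had 11291, 498, 13894 and 9142 in the same order. Nearest to Hvcn1 were Acp5 (0.313), a lysosomal acid phosphatase gene, and the genes Pilrb1 (0.327), Gm5547 (0.33), Frmd5 (0.349) and Tctex1d2 (0.369). Acp5 had signals of 1041, 167, 1990 and 1124. Nearest to Ncf4 were 5830428M24Rik (0.423), S100a13 (0.458), Actn1 (0.467), Pnmt (0.484) and Rgs1 (0.49). Actn1, an actin-crosslinking protein gene, had signals of 714, 2440, 2577 and 1891, and Rgs1, a regulator of G protein signalling, 625, 1919, 2641 and 2459. Both were thus lowest in CD8+CX3CR1+ cells, as Ncf4 was.

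**Figure D3:**
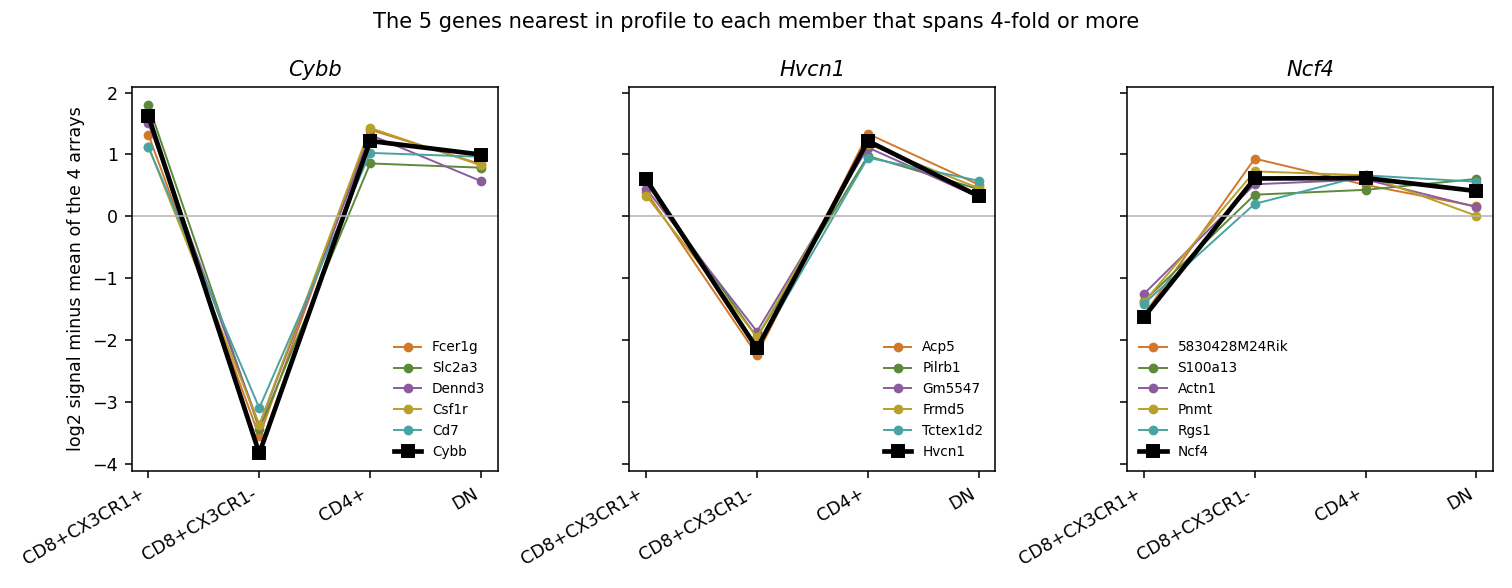
Log2 signal minus the mean of the 4 arrays for Cybb, Hvcn1 and Ncf4 (black squares) and the 5 genes nearest to each (coloured circles). The Cybb and Hvcn1 groups dip in CD8+CX3CR1- cells, Cybb more deeply, and the Ncf4 group dips in CD8+CX3CR1+ cells.

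The other parts of the oxidase differed little. Rac1, the widely expressed relative of Rac2, was between 3921 and 5185 on the 4 arrays, a 1.32-fold range at its brightest probe set. Rap1a, a small GTPase that copurifies with the membrane core, was between 2276 and 3204. Cybc1, the chaperone needed for stable Cybb and Cyba protein, was 711, 594, 611 and 694 on the 4 arrays, lowest in CD8+CX3CR1- cells but within a range of 0.26 on the log2 scale. Of the other family members, Noxo1 and Duox1 passed the floor with highest signals of 129 and 96.4, both in CD4+ cells, and Nox4, Duoxa1 and Duoxa2 were under it on all 4. None of the 5 detected genes among 14 listed symbols was called in any pair, where 0.253% to 2.97% of all genes were.

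Genes of the signalling that activates the oxidase were mostly within 4-fold. Of 25 detected genes among 27 listed, 2 were called between the CD8+CX3CR1+ and CD8+CX3CR1- arrays, where 2.82% of all genes were. They were Fcer1g and Clec7a, which encodes the beta-glucan receptor Dectin-1, and both were lower in CD8+CX3CR1- cells. The Clec7a signal was 4128, 406, 4425 and 3240 on the 4 arrays. The same genes were lower in CD8+CX3CR1- cells than on the CD4+ and DN arrays. Tiam1, an exchange factor for Rac proteins, was the reverse, with 151, 564, 134 and 326, and was called between the CD8+CX3CR1- and CD4+ arrays. Fcgr3, a low-affinity Fc receptor gene, had 193, 50.4, 153 and 63.4, so its signal was under the floor in CD8+CX3CR1- cells. The list's median log2 difference was 0.31 for CD8+CX3CR1+ minus CD8+CX3CR1-, -0.52 for CD8+CX3CR1- minus CD4+ and -0.32 for CD8+CX3CR1- minus DN, where all detected genes had 0, -0.01 and 0. With arrays scaled to an equal median the second was -0.17, where all genes had 0.15. Prkcb, a protein kinase C gene whose product phosphorylates Ncf1, was 4091, 1746, 5109 and 3757, under 4-fold in each pair. It was chosen after its values were seen.

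Among enzymes that remove superoxide and peroxide, those called were higher in CD8+CX3CR1- cells. Of 19 detected genes among 25 listed, Gclc, which makes the glutathione precursor, and Glrx, a glutaredoxin gene, were called higher in CD8+CX3CR1- cells than in CD8+CX3CR1+ cells. Of all genes, 2.82% were called in that pair, in either direction. Gclc was 299, 1422, 183 and 206 on the 4 arrays and was also called against the CD4+ and DN arrays. Glrx was 490, 2250, 1263 and 1229. The thioredoxin gene Txn1 was 2468, 8014, 2546 and 3289, and the catalase gene Cat was 430, 1040, 351 and 428, both highest in CD8+CX3CR1- cells but by less than 4-fold. Gpx4, with 2551.5, 980, 1802 and 1579, and Gsr, with 424, 175, 247.5 and 215.5, were lowest there. Both were chosen after their values were seen. For the 3 differences given for the signalling list, this list's median log2 difference was -0.37, 0.51 and 0.32. With equal medians the value for CD8+CX3CR1- minus CD4+ was 0.83, where all detected genes had 0.15. There 2 listed genes were called higher in place of 1, and 237 of 12482 detected genes in place of 149 of 12673.

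Of the vacuolar proton pump, which acidifies phagosomes, 17 of 19 listed genes were detected and 1 was called, in the pair of CD8+CX3CR1- and CD4+ cells, where 2.97% of all genes were. That gene was Atp6v0a2, with 379, 1354, 325 and 505 on the 4 arrays, and with quantile normalization it was not called. Tcirg1, Atp6ap1 and Atp6v1f had ranges of 2.27-fold, 2.05-fold and 1.72-fold.

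Among factors known to act on oxidase genes, Irf8 was 1409, 13285, 617 and 4847 on the 4 arrays, and was thus highest where the Cybb signal was lowest. Spi1, which encodes PU.1, was between 919 and 1214, a 1.32-fold range, and was chosen after its values were seen. Runx1 was highest in CD8+CX3CR1+ cells, at 949 against 283 to 318, and Satb1 was lowest in CD8+CX3CR1- cells, at 187 against 493 to 517. Cebpa was 160 in CD8+CX3CR1+ cells and 118 in DN cells and under the floor on the other arrays. Of 12 genes in the list, Irf8 alone was called in any pair, where 0.253% to 2.97% of all genes were. Of 16 genes that bring the oxidase to phagosomes or act there, Slc11a1, a phagosomal metal transporter gene, was the only one called, at 1127 in CD8+CX3CR1- cells against 189 to 234. It was called in the pairs with the CD8+CX3CR1- array, where 2.02% to 2.97% of all genes were. Rab11a was 3521 in CD8+CX3CR1- cells against 1206 to 1563, Rab5a had a 2.19-fold range, and Rab27a was under the floor in CD4+ cells and 87.4 to 159 on the others.

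**Figure D4:**
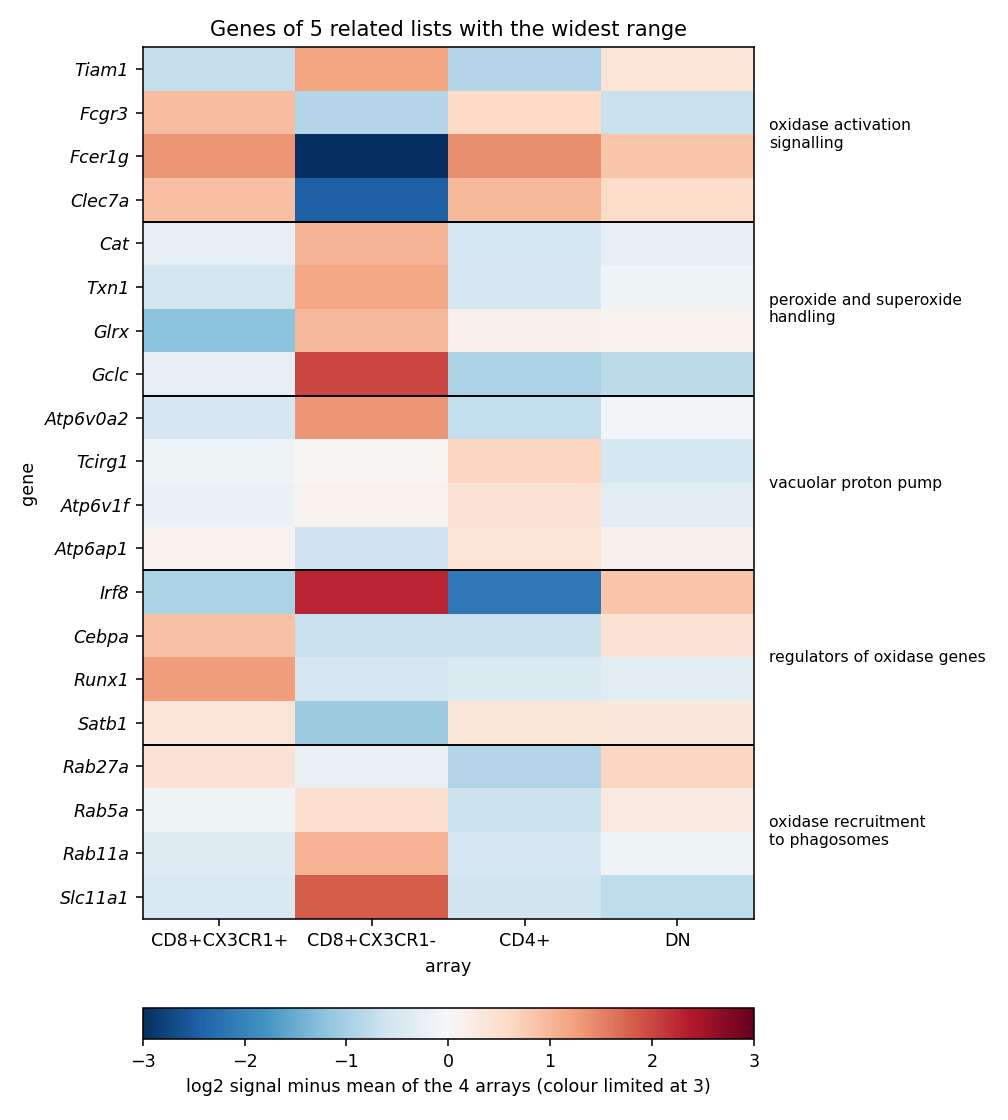
Log2 signal minus the mean of the 4 arrays, raised to the floor, for up to 4 genes of widest range in each of 5 lists related to the oxidase, with red above and blue below the mean. Fcer1g and Clec7a are lowest in CD8+CX3CR1- cells, while Gclc, Irf8 and Slc11a1 are highest there.

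Neutrophils, macrophages and monocytes express the oxidase strongly, so their markers were set beside the Cybb values. In sorted bulk samples, fewer cells of a type and less RNA per cell cannot be told apart. Sums are over all listed genes with a probe set, detected or not. Of 14 neutrophil symbols, 12 had a probe set, with a summed signal of 349.7, 398, 813 and 520 on the 4 arrays, and 6 were detected. S100a9, Camp, Lcn2, Elane, Mpo and Mmp8 were under the floor on all 4, and Csf3r, the receptor for granulocyte colony-stimulating factor, was 64.5, 50.9, 300.4 and 119. Mmp9 was 54.4, 6.5, 149.6 and 181, and the highest signals of Ngp and Ltf were 89.9 and 93.7, both in CD4+ cells. S100a8 and Cxcr2 ran the other way and passed the floor in CD8+CX3CR1- cells alone, at 82.1 and 56.1. Of 14 macrophage symbols, 13 had a probe set, with sums of 4440, 2740, 7563 and 4660, and 12 were detected. The complement gene C1qa was 197, 27.9, 203 and 40.0 and C1qc was 185, 6.6, 206 and 14.1, so both were under the floor in CD8+CX3CR1- cells, where Cybb was low. Both were also under it in DN cells, where Cybb was 3064. C1qb was 742, 60.0, 358 and 70.2. Adgre1, which encodes F4/80, was 579, 143, 3068 and 1692. Vcam1, an adhesion molecule gene, was 291, 513, 142 and 109, so it was highest in CD8+CX3CR1- cells. Of 12 monocyte symbols, 9 had a probe set, with sums of 16534, 4017, 17699 and 13903, and 7 were detected. Most of the sum was Csf1r except in CD8+CX3CR1- cells. Ms4a6c was 3476, 388, 2154 and 2150, and Ccr2 was 705, 225, 143 and 539.6. Treml4 ran against these, with 196, 2124, 399 and 456, and was called higher in CD8+CX3CR1- cells in each pair with that array. The macrophage and monocyte sums were thus lowest on the array with the lowest Cybb and Hvcn1 signals. Both sums were highest in CD4+ cells, as were Adgre1, Cd68 and Csf1r, which made up most of them there. C1qb, Ms4a6c and Ccr2 were instead highest in CD8+CX3CR1+ cells, as Cybb was. For CD8+CX3CR1+ minus CD4+ the median log2 difference was 0.13 over the detected macrophage markers and -0.27 over the detected monocyte markers. The part of such cells in the Cybb and Hvcn1 values was not tested.

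Lymphocyte and DC markers were set beside the members in the same way. Of 10 B cell symbols, 9 had a probe set, with sums of 1218, 701, 1018 and 619, and 7 were detected. Cd79b, a chain of the B cell receptor, was 593, 3.1, 402 and 178, so it too was under the floor in CD8+CX3CR1- cells. There it was at least 10.7-fold lower than in CD8+CX3CR1+ cells and was also called against CD4+ cells. Cd79a, another chain of that receptor, was under the floor on all 4 arrays. The highest signals of Pax5 and Ebf1 were 97.1 in CD4+ cells and 73.9 in CD8+CX3CR1+ cells. Ms4a1, which encodes CD20, was 361, 446, 202 and 162.5, highest in CD8+CX3CR1- cells. Blk was 9.0, 2.5, 143 and 115, and Fcer2a was 114, 81.1, 49.9 and 83.3. Of 11 T and NK cell symbols, 9 had a probe set, with sums of 515, 242, 394.5 and 477, and 6 were detected. Cd5 was 117, 45.4, 171 and 128, Gzma was 115, 55.4, under the floor and 87.7, Eomes was 76.7, 22.9, 91.4 and 108, and Cd3e was 65.8, 23.2, 19.8 and 66.8. The sum of these markers was also lowest in CD8+CX3CR1- cells, and neither its part nor that of Cd79b in the member values was tested. Of 17 DC symbols, 15 were detected, with sums between 60351 and 83103. Sirpa, a marker of CD8-negative DCs, was 731, 64.1, 963 and 687, and was thus low on the same array as Cybb. Tcf4, a regulator of plasmacytoid DCs, was 3489, 269.5, 470.0 and 1135.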

How the data were processed

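The deposited table holds intensity values per probe set (MAS5 signal, linear scale), for which the submitters' processing notes name MAS5. The sources used here give neither its version nor a genome build. Such scaling fixes each array's mean, so a difference in total RNA per cell cannot be seen. Of 45101 probe sets, 64 are controls, 34945 have 1 symbol, 932 several and 9160 none. RefSeq (GRCm38.p6) held 99.4% of the Entrez identifiers and changed 0 symbols. No coordinates of array features are printed.

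Where several probe sets measure a gene, the one of highest mean log2 signal stands for it. Of 18193 genes, 12673 passed the floor somewhere and formed the background. Arrays were grouped by title, and 6 pairs were compared with no test. The steps were tested on simulated data with known folds. Python 3.11.15, numpy 2.4.6 and pandas 2.3.3 were used. The members and lists were chosen with earlier results of these data known, and 1 list is not reported here. Genes named are all members, up to 4 detected genes of widest range per list, the other oxidase subunits, and the 5 nearest profiles of members spanning 4-fold, with additions marked where they occur and further marker genes given beside the members. Alternatives covered normalization, the floor, an offset, the probe set rule and the threshold.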

Additional observations from a re-analysis of the deposited data

How the results depend on the processing

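Between the CD8+CX3CR1+ and CD8+CX3CR1- arrays 3 members were called under every alternative, as were 2 between the CD8+CX3CR1- and CD4+ arrays apart from 3 at the 2-fold threshold. The member count for CD8+CX3CR1+ against CD4+ fell from 1 to 0 with arrays scaled to an equal median and rose to 2 at the 2-fold threshold. For CD8+CX3CR1+ against DN it fell from 1 to 0 with equal medians and with an offset of 50 in place of the floor. For CD8+CX3CR1- against DN it fell from 2 to 1 with the offset, where Hvcn1 was at -1.91. With probe sets averaged, the log2 difference of Cybb was 4.45 for CD8+CX3CR1+ against CD8+CX3CR1-, -3.72 for CD8+CX3CR1- against CD4+ and -3.58 for CD8+CX3CR1- against DN, and with the offset the first was 4.92. All alternatives kept Cybb past 4-fold in these 3 pairs. Scaling to equal medians lowers the CD4+ array, and the median of all genes then shifted to 0.17 for CD8+CX3CR1+ minus CD4+, 0.15 for CD8+CX3CR1- minus CD4+ and -0.12 for CD4+ minus DN. Ncf4 relative to that median was -2.10 against CD4+. The genes higher and lower by 4-fold went from 50 and 48 to 90 and 21, from 149 and 228 to 237 and 158, and from 9 and 23 to 5 and 35 in these pairs. Signs were kept in 47 of 48 values for Cybb, 40 of 42 for Cyba, 46 of 48 for Ncf1 and Ncf4, 47 of 48 for Rac2 and 48 of 48 for Hvcn1. Many of these were fixed in advance. The signals that stand for the members all lay above 71.9, the highest floor tried. Other floors or none therefore left every member value and call unchanged. So did leaving out _x, _s and _a probe sets for members other than Cyba. For Ncf4 and Hvcn1, with 1 probe set each, averaging changed nothing either. Such settings are no check on the member values. Cyba has no probe set left without _x, _s and _a probe sets. The signal of Cybb and Hvcn1 over background limits their folds on the CD8+CX3CR1- array. No paired analysis was possible because each group holds 1 array.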

Other observations

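Ncf4 and Rac2 are near neighbours on one chromosome in RefSeq, with 10 protein-coding genes between them, and they were compared with those genes after their values had been seen. Of these, 5 passed the floor on at least 1 array. Csf2rb2, a receptor chain for interleukin 3 that lies next to Ncf4, was 682, 401, 389 and 332 on the CD8+CX3CR1+, CD8+CX3CR1-, CD4+ and DN arrays, and was highest where the Ncf4 signal was lowest. Csf2rb, the shared beta chain of the receptors for interleukin 3, interleukin 5 and GM-CSF, was 995, 1456, 1827 and 1108. Its log2 difference between the CD8+CX3CR1+ and CD8+CX3CR1- arrays was -0.55, against -2.24 for Ncf4. Neither of these genes was called in this pair or between the CD8+CX3CR1+ and CD4+ arrays. The gene on the other side of Ncf4 was not examined.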
